A study of Mus musculus with 6 samples.

Results

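The genes described here are 6 nuclear genes for proteins that mark damaged or surplus mitochondria for removal or that sit in mitochondrial membranes and are known to respond to low oxygen: Bnip3, Bnip3l, Fundc1, Pink1, Higd1a and Fam162a. They were taken by gene symbol from the 23358 gene rows of the count table, where each of the 6 had 1 row, and all 6 were among the 14979 rows abundant enough to test. RNA was sequenced from N1E115 cells, a mouse neuroblastoma line described in the labels as expressing NOS1, an enzyme that makes nitric oxide in neurons. The cells had been kept for 3 days in 20% oxygen, which the labels call normoxia, or in 4% oxygen, which they call hypoxia, and each oxygen level had 3 libraries numbered 1 to 3. No other treatment or genetic change is named. Whether the numbered libraries were grown as independent cultures is not stated, so the p-values below reflect only how far these libraries scatter, and that scatter may be technical.

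Mitophagy is the delivery of mitochondria to lysosomes by autophagy. One route uses receptors in the outer mitochondrial membrane, such as the proteins of Bnip3, Bnip3l (also called Nix) and Fundc1, which bind the ATG8-family proteins of the autophagosome directly. The other route begins with the kinase PINK1, which accumulates on depolarised mitochondria and marks them through ubiquitin. Bnip3 is a textbook target of hypoxia-inducible factors, whose alpha subunits are degraded when oxygen is plentiful, whereas FUNDC1 and PINK1 are known to be controlled largely at the protein level. Higd1a encodes an inner-membrane protein associated with the respiratory chain, and Fam162a a mitochondrial protein linked to cell death in hypoxia.

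Hypoxia-inducible factors recognise a short core, ACGTG or GCGTG, so the 250 bases before the gene start are shown where the RefSeq start (GRCm38.p6) lay within 50 bases of the start in the deposited table. These were the windows of Bnip3 and Fam162a, which were higher at 4% oxygen in these libraries, and of Pink1, whose groups overlapped. Each is printed 5′ to 3′ on the gene's own strand, which is the minus strand for all of them, with matches to the core on either strand in capitals.
Bnip3, chr7:138909507-138909756: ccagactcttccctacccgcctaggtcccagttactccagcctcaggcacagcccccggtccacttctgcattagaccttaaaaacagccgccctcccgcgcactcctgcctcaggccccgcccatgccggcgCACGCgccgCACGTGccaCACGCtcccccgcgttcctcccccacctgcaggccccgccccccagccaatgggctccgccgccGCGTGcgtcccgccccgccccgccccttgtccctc
Fam162a, chr16:36071562-36071811: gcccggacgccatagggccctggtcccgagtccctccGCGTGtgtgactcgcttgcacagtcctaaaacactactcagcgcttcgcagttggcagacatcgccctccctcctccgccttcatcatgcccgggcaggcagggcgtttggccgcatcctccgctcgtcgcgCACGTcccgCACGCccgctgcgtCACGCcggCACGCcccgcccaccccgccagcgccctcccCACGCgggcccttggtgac
Pink1, chr4:138326297-138326546: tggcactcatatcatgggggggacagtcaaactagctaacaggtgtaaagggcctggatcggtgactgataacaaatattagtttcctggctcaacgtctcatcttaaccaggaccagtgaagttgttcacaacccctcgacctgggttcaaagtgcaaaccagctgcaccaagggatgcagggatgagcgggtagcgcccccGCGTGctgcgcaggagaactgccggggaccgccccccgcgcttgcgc
The Bnip3 window held 5 matches, at 117, 108, 107, 99 and 35 bases before the start, and those at 108 and 107 are the overlapping readings of a palindrome on opposite strands. Fam162a held 6 matches and Pink1 held 1, at 47 bases before the start. Among 32851 windows of the same length in the reference, 38.6% held at least 1 match, 1.01% held as many as Bnip3 and 0.417% as many as Fam162a. GC content was 72.4% for Bnip3, 71.2% for Fam162a and 57.2% for Pink1, against a median of 52.4% over all windows. Both forms of the core contain CpG, a C followed by a G. The windows held 24 CpG for Bnip3, 30 for Fam162a and 13 for Pink1, against a median of 6. The part of GC or CpG content in the counts of matches was not tested. A match describes letters only and is not shown to be a binding site. The RefSeq starts of Higd1a and Fundc1 lay 204 and 290 bases inside the deposited genes, so their windows were not used.

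Library totals ran from 124259152 to 163695286 counts over gene rows. Replicate 1 at 20% oxygen stood apart, with a mean correlation of log2 CPM across genes of 0.958 with the other 5 libraries, against 0.969 to 0.975 for those. The fold change of each of the 6 genes is therefore also given without it. CPM is counts per 1000000 of the library total, scaled by the TMM method. Markers of the sympathoadrenal lineage were present, with 10 of 11 at 1 CPM or more in every library, and their summed level was 1594 to 1925 CPM at 20% oxygen and 2394 to 2856 CPM at 4%. Ddc was the exception. Mesenchymal, Schwann, immune and endothelial markers summed to at most 16.0 CPM per library in any list, and 13 of these 20 markers stayed below 1 CPM in all 6, among them Ptprc, Cdh5, Kdr, Twist1 and Prrx1. Another 3 were at 1 CPM or more in every library: Erbb3 of the Schwann list at 3.49 to 14.4 CPM, Col1a1 of the mesenchymal list at 1.97 to 10.004 CPM and Pecam1 of the endothelial list at 1.70 to 9.66 CPM.

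Bnip3, Higd1a and Fam162a had higher levels in every 4% oxygen library than in any 20% oxygen library. Bnip3l was higher at 4% oxygen in each same-numbered pair but its groups overlapped, and Fundc1 and Pink1 showed no such separation. All 3 libraries of 4% oxygen lay above all 3 of 20% for 6.33% of the genes tested. No member passed the test over all genes: edgeR's quasi-likelihood test, Benjamini-Hochberg adjusted, called 0 of the 6 members, and 0 of 14979 genes in either direction (0.0%). At an unadjusted p under 0.05, 3 of the 6 were higher and 0 lower, against 3.01% and 1.42% of all genes. The members were chosen with earlier results of these data known, so such shares only describe them. DESeq2 called 1 member, Bnip3, among 57 genes called higher (0.381%), and 0 members among 7 called lower (0.0467%), while limma-voom called 0 genes. With the replicate number as a block edgeR called 0 members, where 0.0734% of genes were called higher, and when low counts were not filtered out it called Bnip3, where 0.133% were called higher and 0.0107% lower. At an unadjusted p under 0.05 with the block, Bnip3, Bnip3l, Higd1a and Fam162a were higher and 0 members lower, against 6.01% and 2.86% of genes. These 4 were also the members higher at 4% oxygen in each of the 3 same-numbered pairs, as were 17.3% of genes tested. Since RNA came from whole cultures, a change in every cell and a change in the share of cells with a high level cannot be told apart.

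**Figure D1:**
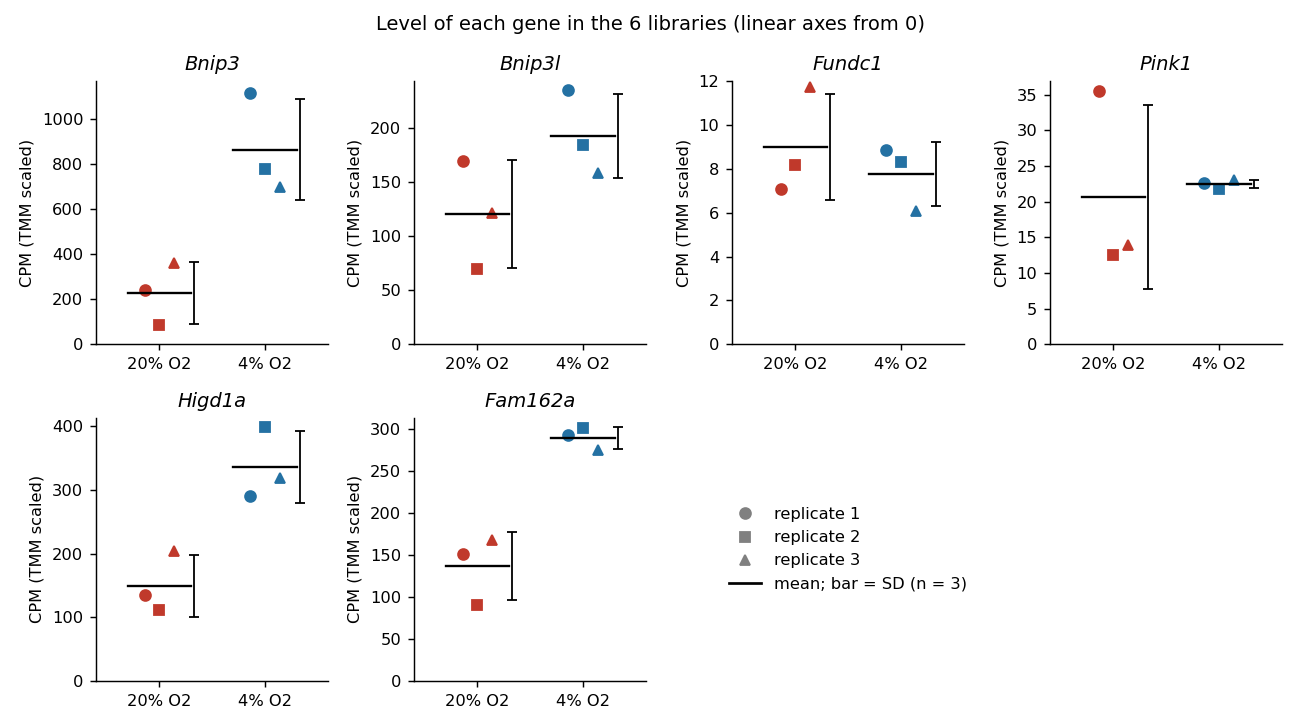
Levels of the 6 genes in each library, in TMM-scaled CPM on linear axes from 0, with 20% oxygen in red and 4% oxygen in blue, a symbol for each replicate number, lines at the mean and bars for the SD (n = 3). For Bnip3, Higd1a and Fam162a every blue point lies above every red one, and for Pink1 the 4% oxygen points lie between 20% oxygen replicate 1 and the remaining 20% oxygen libraries.

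Bnip3, the receptor whose protein tethers mitochondria to autophagosomes, had the largest difference of the 6. Replicates 1, 2 and 3 held 241, 85.5 and 359 CPM at 20% oxygen, and 1116, 777 and 696 CPM at 4% oxygen. The lowest 4% oxygen library was above the highest 20% oxygen library, and replicate 2 was the lowest of the 20% oxygen group. The means were 228 ± 137 and 863 ± 222 CPM (SD, n = 3), a ratio of 3.78. On the log2 scale the fold change was 1.92 (SE 0.43). The edgeR unadjusted p was 0.000886, rank 27 of all genes tested, and the adjusted p 0.491. DESeq2 gave an adjusted p of 0.00368, and edgeR without the filter on low counts 0.0182. Within the numbered pairs the log2 ratio was 2.21, 3.18 and 0.96, so the smallest difference was in the pair numbered 3. With any 1 library left out the log2 fold change stayed between 1.53 and 2.40, and it was 1.96 without 20% oxygen replicate 1. Only 46 of the 14979 genes tested had a larger log2 fold change. Bnip3 lies on chromosome 7 at 138890836 to 138909506 in mm10. Its values carry a doubt about shared reads: 5 other annotated genes, among them pseudogenes, match its mRNA at 90% identity or more over at least 200 bases, and an annotated antisense gene, Gm45507, covers 22.3% of its exon bases. None of these has a row in the deposited table.

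Bnip3l, the paralogue known for clearing mitochondria from maturing red blood cells, differed less. The 20% oxygen libraries gave 170, 70.0 and 122 CPM for replicates 1, 2 and 3, and those at 4% oxygen gave 236, 184 and 159 CPM. The groups overlapped through 20% oxygen replicate 1, which was above 4% oxygen replicate 3. The means were 120 ± 49.8 and 193 ± 39.1 CPM (SD, n = 3), and the log2 fold change was 0.68 (SE 0.32; edgeR unadjusted p = 0.0557, adjusted p = 0.996). It was 1.01 without 20% oxygen replicate 1 and 0.41 without replicate 2 of that group. With the replicate block it was 0.75 (SE 0.25; edgeR unadjusted p = 0.0121, adjusted p = 0.405). Bnip3l (chromosome 14, 66985240 to 67008877) has 1 transcribed copy elsewhere, Bnip3l-ps, that could share reads and has no row in the table.

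Fundc1, the third of these receptors, was expressed at a low level that overlapped between the groups. It had 7.10, 8.19 and 11.7 CPM at 20% oxygen and 8.86, 8.32 and 6.10 CPM at 4% oxygen, so the highest and the lowest library both carried the number 3. The means were 9.01 ± 2.42 and 7.76 ± 1.47 CPM (SD, n = 3). The log2 fold change was -0.22 (SE 0.31), at an edgeR adjusted p of 0.996. It turned to 0.020 without 20% oxygen replicate 3, and was -0.36 without 20% oxygen replicate 1. Fundc1 lies on chromosome X at 17556569 to 17572297.

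**Figure D2:**
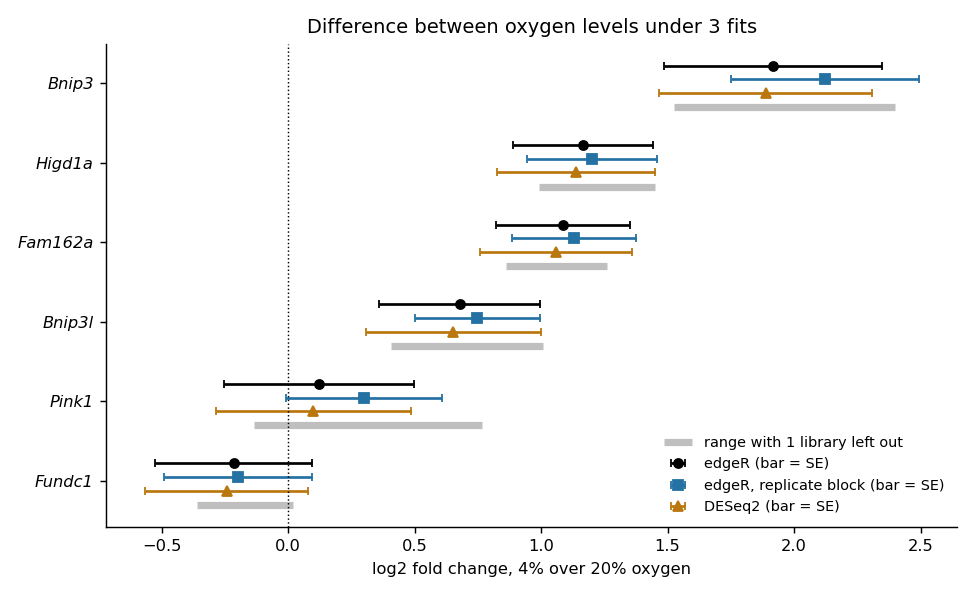
Log2 fold change of each gene at 4% over 20% oxygen, from edgeR, edgeR with a block for the replicate number, and DESeq2 (bars are SE), with a grey bar for the range of edgeR estimates when 1 library is left out. The ranges of Bnip3, Higd1a, Fam162a and Bnip3l stay above 0, and those of Pink1 (-0.14 to 0.77) and Fundc1 (-0.36 to 0.020) cross it.

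Because Bnip3 and Bnip3l are paralogues, their ratio within each library was compared, which needs no scaling between libraries. Per-length levels are RPKM, a count divided by the library total and by a length that was deposited as coding length. By this measure Bnip3 was 2.62, 2.25 and 5.42 times Bnip3l at 20% oxygen and 8.73, 7.78 and 8.08 times at 4% oxygen. The 4% oxygen values lay close together and above all of the 20% oxygen values, among which replicate 3 was highest. On the log2 scale of the count ratio the means were 0.78 ± 0.68 and 2.15 ± 0.085 (SD, n = 3), a difference of 1.37. The exact two-sided permutation test gave p = 0.1, the smallest that 3 libraries against 3 allow, and 0.15 after Benjamini-Hochberg adjustment over the 3 ratios tested, so the design cannot pass the threshold of 0.05. The difference was in the same direction in 3 of 3 numbered pairs. Of the summed RPKM of the 3 outer-membrane receptors, Bnip3 made up 71.0%, 65.3% and 82.4% at 20% oxygen and 89.1%, 87.9% and 88.4% at 4% oxygen. Fundc1 made up 1.88% to 5.64% and 0.638% to 0.848%.

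**Figure D3:**
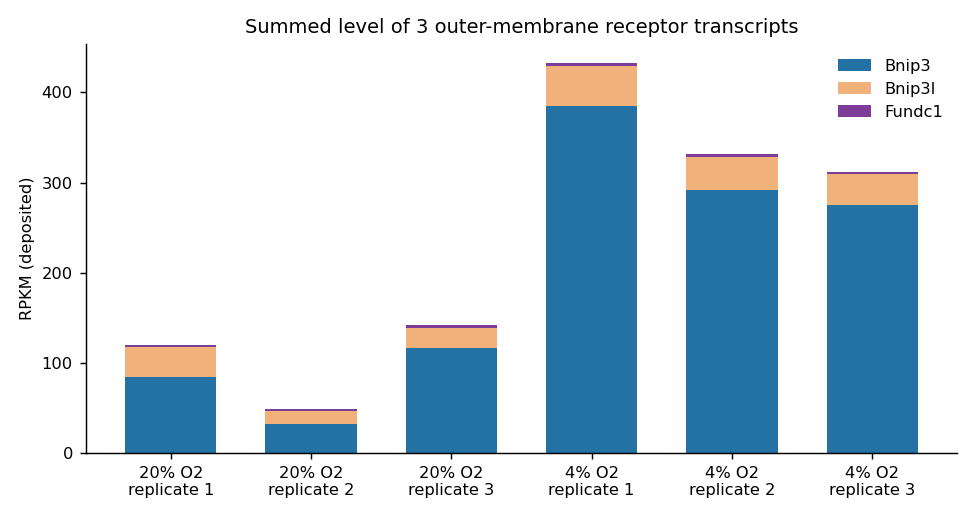
Deposited RPKM of the outer-membrane receptor genes Bnip3, Bnip3l and Fundc1, stacked for each library from 0. The sum was 49.3 to 142 at 20% oxygen and 311 to 432 at 4% oxygen, and Bnip3 (blue) made up most of every bar. RPKM carries no TMM scaling, so bar heights are not adjusted between libraries as CPM are.

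The ratio of Fundc1 to its paralogue Fundc2 showed no separation. The log2 count ratio averaged -1.12 ± 0.40 at 20% oxygen and -1.10 ± 0.20 at 4% oxygen (SD, n = 3), a difference of 0.02 with an exact two-sided permutation p of 1. Fundc2 itself had 15.9 to 21.1 CPM at 20% oxygen and 13.5 to 21.2 CPM at 4% oxygen. The log2 fold change of Fundc2 was -0.21 (SE 0.28). Leaving out 20% oxygen replicate 1 turned the difference in the ratio to -0.21, and leaving out 4% oxygen replicate 2 turned it to -0.087.

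Pink1, the kinase that starts the ubiquitin route, was measured at 35.5, 12.5 and 13.9 CPM at 20% oxygen, in replicate order, and at 22.5, 21.8 and 23.0 CPM at 4% oxygen. Replicate 1 at 20% oxygen was above all the 4% oxygen libraries and the others of its group were below them. The means were 20.6 ± 12.9 and 22.4 ± 0.598 CPM (SD, n = 3), and the log2 fold change was 0.12 (SE 0.38; edgeR adjusted p = 0.996). The log2 fold change depended on which 20% oxygen library was kept. Leaving out replicate 1 gave 0.77 (SE 0.24; edgeR unadjusted p = 0.00801, adjusted p = 0.359). Without 20% oxygen replicate 2 or 3 it was -0.14 or -0.099. In that fit without 20% oxygen replicate 1, 5.79% of genes were higher at an unadjusted p under 0.05, and 5 of the 6 members were among them. Pink1 lies on chromosome 4 at 138313410 to 138326296.

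Higd1a had 134, 111 and 204 CPM at 20% oxygen and 291, 398 and 319 CPM at 4% oxygen. The groups did not overlap, and replicate 3 was the highest of the 20% oxygen libraries. The means were 150 ± 48.6 and 336 ± 55.9 CPM (SD, n = 3), a ratio of 2.24. On the log2 scale this was 1.17 (SE 0.28). The edgeR unadjusted p was 0.00131 and the adjusted p 0.51. DESeq2 gave an adjusted p of 0.0512. With 1 library left out the log2 fold change was between 0.99 and 1.45, and it was 1.09 without 20% oxygen replicate 1. Higd1a (chromosome 9, 121848560 to 121858000) shares 22.5% of its exon bases with an annotated antisense gene, Gm47112, and has a processed pseudogene, Gm9790, neither with a row in the table. The strand setting of the counting is not given in the sources used here, so reads of antisense partners cannot be told apart.

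Higd2a, a relative of Higd1a linked to the assembly of cytochrome oxidase, had 13.1 to 18.5 CPM at 20% oxygen and 13.3 to 19.2 CPM at 4% oxygen. Its log2 fold change was -0.017 (SE 0.28). The per-length level of Higd1a was 2.38, 2.76 and 4.37 times that of Higd2a at 20% oxygen and 4.96, 9.81 and 7.54 times at 4% oxygen. All 4% oxygen ratios were above all 20% oxygen ratios. The mean log2 count ratio went from 3.23 ± 0.46 to 4.45 ± 0.50 (SD, n = 3), a difference of 1.22 (exact two-sided permutation p = 0.1, adjusted p = 0.15 over the 3 ratios), seen in 3 of 3 numbered pairs.

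**Figure D4:**
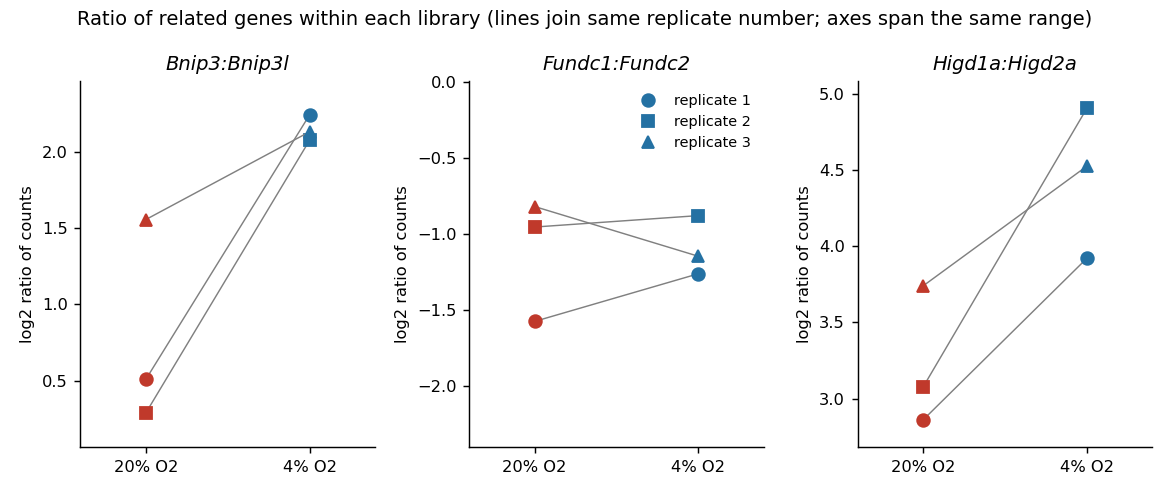
Log2 ratio of counts of related genes in each library, 20% oxygen on the left and 4% on the right of each panel, with lines joining libraries of the same replicate number and axes of equal span. The 4% oxygen points lie above all 20% oxygen points for Bnip3 to Bnip3l and for Higd1a to Higd2a, and overlap them for Fundc1 to Fundc2.

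Fam162a had 151, 90.4 and 167 CPM at 20% oxygen and 292, 301 and 274 CPM at 4% oxygen. The 4% oxygen libraries lay within a narrow range above all the others, and replicate 2 was the lowest at 20% oxygen. The means were 136 ± 40.6 and 289 ± 13.3 CPM (SD, n = 3), a ratio of 2.12. On the log2 scale the fold change was 1.09 (SE 0.27). The edgeR unadjusted p was 0.00166 and the adjusted p 0.527, against 0.0732 from DESeq2. With 1 library left out the log2 fold change was 0.86 to 1.26, and it was 1.16 without 20% oxygen replicate 1. Fam162a (chromosome 16, 36043844 to 36071515) overlaps exons of Wdr5b on the other strand over 168 bases, and Wdr5b averaged 2.001 CPM.

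Levels were compared between genes by the authors' deposited RPKM. At 20% oxygen the order was Fam162a at 131 ± 31.9, Bnip3 at 78.2 ± 43.0, Higd1a at 48.7 ± 12.4, Bnip3l at 22.8 ± 9.13, Pink1 at 5.38 ± 3.39 and Fundc1 at 2.83 ± 0.602 RPKM (SD, n = 3). The ranges of Fam162a and Bnip3, of Bnip3 and Higd1a, and of Pink1 and Fundc1 overlapped between libraries. Within libraries Fam162a was above Bnip3 in 3 of 3, whereas Bnip3 was above Higd1a and Pink1 above Fundc1 in 2 of 3. At 4% oxygen Bnip3 had the highest mean, 317 ± 59.4 RPKM, and its range overlapped that of Fam162a at 297 ± 16.8 RPKM. Bnip3 was above Fam162a in 1 of these 3 libraries, replicate 1, and below it in the others. The next were Higd1a at 117 ± 23.0, Bnip3l at 38.5 ± 5.13, Pink1 at 6.19 ± 0.491 and Fundc1 at 2.58 ± 0.356 RPKM, with no overlap between neighbours. By mean RPKM over the 6 libraries, 0.942% of all gene rows lay above Fam162a and 1.02% above Bnip3.

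Likeness to each gene was measured as the root mean square difference of centred log2 CPM over the 6 libraries, among genes averaging at least 5 CPM. Higd1a and Fam162a were close to each other, at 0.20, where Fam162a ranked 3 among 10334 genes by likeness to Higd1a. The nearest to Higd1a were Ldha, a lactate dehydrogenase gene, at 0.17 and Slc16a3, a lactate exporter gene, at 0.18. Nearest to Fam162a were Prelid2 at 0.084 and Mxi1 at 0.16. For Bnip3 they were Cdc42ep2 at 0.27 and Pdk1, a pyruvate dehydrogenase kinase gene, at 0.32, and Fam162a was the nearest member, at 0.63 and rank 31. Galk1 at 0.13 and Slc27a6 at 0.15 were nearest to Bnip3l, whose distance to its paralogue Bnip3 was 0.79. The profile of Pink1 was most like those of Rims3 at 0.057 and Ubtd1 at 0.064, and that of Fundc1 like Ufc1 at 0.071 and Med11 at 0.077.

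The wider pathway was followed through 6 lists holding 138 genes, of which 132 were tested. As the lists were chosen with earlier results of these data known, the shares below describe them and test nothing. The edgeR test called 0 of them higher and 0 lower over all genes, as did DESeq2, and at an unadjusted p under 0.05, 7 were higher and 4 lower. These are 5.30% and 3.03% of the list genes, against 3.01% and 1.42% of all genes tested. Of the 132, 10 had 4% oxygen libraries all above 20% oxygen libraries and 9 had them all below. Over all genes tested the shares were 6.33% and 3.72%. The median log2 fold change over the 132 was -0.086, against -0.025 over all genes tested, and 35.6% of estimates were above 0, against 47.3%.

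Other mitophagy receptors and proteins that regulate the receptors had a median of -0.0085 over 18 genes, with 9 estimates above 0. At an unadjusted p under 0.05, 6 of the 18 were higher, against 3.01% of all genes. The same 6 had 4% oxygen libraries all above 20% oxygen libraries, as did 6.33% of genes tested. Both counts rest on the same values, so the second is not separate evidence. The list was chosen with earlier results of these data known, so its shares only describe it. These 6 genes were Ulk1, Disc1, Nlrx1, Bcl2, Bnip1 and Src, the last 4 named after their values were seen. Ulk1, the kinase that starts autophagy and phosphorylates FUNDC1, had 27.2, 14.3 and 17.1 CPM at 20% oxygen and 41.5, 31.6 and 45.9 CPM at 4% oxygen. Its log2 fold change was 1.02 (SE 0.30; edgeR unadjusted p = 0.00552, adjusted p = 0.732). Disc1, a scaffold protein gene linked to mitochondrial transport, averaged 8.40 ± 3.20 and 17.3 ± 0.256 CPM (SD, n = 3; log2 fold change 1.04, SE 0.32). Nlrx1, a mitochondrial NOD-like receptor, had a log2 fold change of 1.01 (SE 0.33), Bcl2, which restrains cell death, 0.77 (SE 0.32), Bnip1 0.61 (SE 0.26) and Src, a kinase known to act on FUNDC1, 0.58 (SE 0.25).

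Genes that act with Pink1, which include the import channel, deubiquitinases and ubiquitin-binding autophagy adaptors, had 26 tested members with a median of -0.12, and 8 estimates were above 0. In 4 of the 26 the 4% oxygen libraries lay all below those at 20%, and in 0 all above. The shares over all genes tested were 3.72% and 6.33%. Tomm20, a receptor of the import channel, had 541, 459 and 712 CPM at 20% oxygen and 444, 397 and 345 CPM at 4% oxygen, with no overlap. Its log2 fold change was -0.53 (SE 0.24; edgeR adjusted p = 0.996), and -0.34 once 20% oxygen replicate 3 was left out. The adaptor gene Sqstm1 averaged 939 ± 406 and 658 ± 72.7 CPM (SD, n = 3), where 20% oxygen replicate 1 was the highest at 1396 CPM. Its groups overlapped, and its log2 fold change was -0.51 (SE 0.29), or -0.11 without that library.

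Core autophagy and ATG8-family genes had a median of -0.12 over 35, with 11 above 0. Ulk2, a relative of Ulk1, averaged 13.6 ± 1.10 and 20.9 ± 2.79 CPM with no overlap between groups (SD, n = 3; log2 fold change 0.62, SE 0.25). The lysosomal membrane gene Lamp2 averaged 85.9 ± 7.90 and 54.1 ± 25.4 CPM (SD, n = 3), and its groups overlapped. Its log2 fold change was -0.67 (SE 0.32), and between -1.14 and -0.45 with 1 library left out. Fission, fusion and cristae genes had a median of -0.063 over 19, with 9 above 0, and 0 at an unadjusted p under 0.05. Apoo and Mtfp1, with the smallest p of that list, had overlapping groups and log2 fold changes of -0.63 (SE 0.39) and -0.68 (SE 0.43). Apoo was at -0.17 without 20% oxygen replicate 2 and at -1.07 without 4% oxygen replicate 1, and Mtfp1 at -1.07 and -0.40 when 20% oxygen replicate 1 or 2 was left out.

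Mitochondrial stress response genes had a median of -0.11 over 19, with 5 above 0. Hspe1, the matrix co-chaperonin, averaged 342 ± 131 and 201 ± 31.3 CPM with overlapping groups, and Chchd10, an intermembrane-space protein gene, 605 ± 120 and 410 ± 63.8 CPM with no overlap (SD, n = 3; log2 fold change -0.56, SE 0.24; edgeR adjusted p = 0.996). Genes of mitochondrial biogenesis had a median of -0.037 over 15, with 5 above 0. Tfb2m, a mitochondrial transcription factor, averaged 39.0 ± 10.02 and 23.9 ± 4.56 CPM, and Tfam, which packages mitochondrial DNA, 101 ± 4.83 and 77.9 ± 4.15 CPM (SD, n = 3), both with 4% oxygen libraries all below. All 3 libraries of 4% oxygen lay below all 3 of 20% for 3.72% of genes tested.

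**Figure D5:**
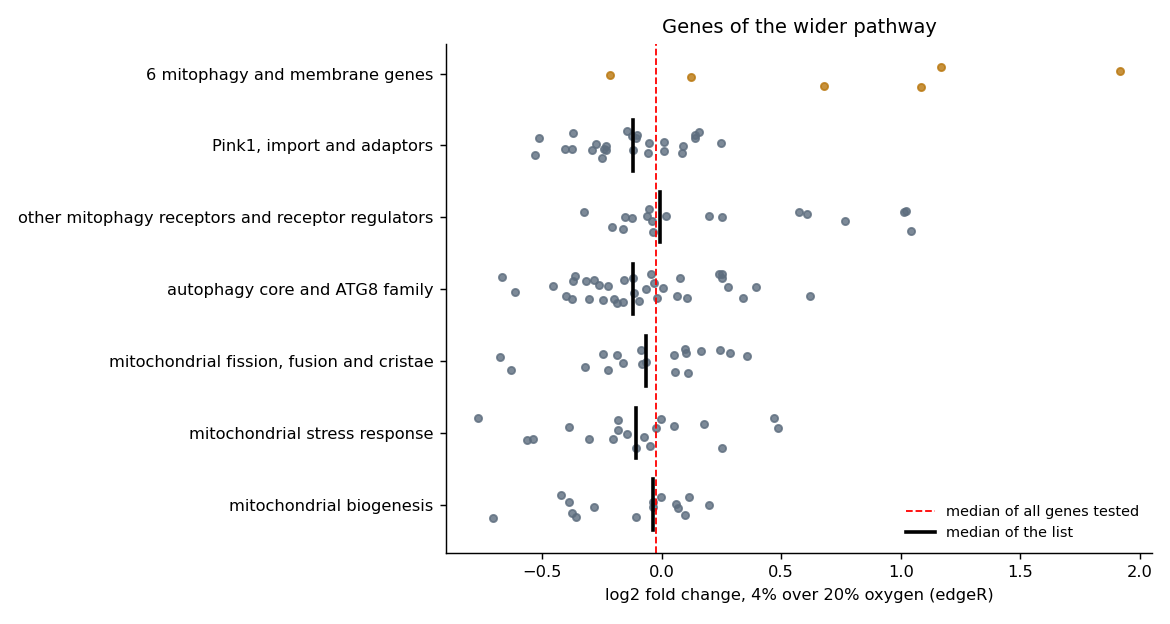
Log2 fold change at 4% over 20% oxygen (edgeR) of the 6 genes and of each tested gene in the 6 pathway lists, with a black line at each list's median and a dashed line at the median of all genes tested, -0.025. List medians lie between -0.12 and -0.0085, and Bnip3 at 1.92 lies to the right of every list gene.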

How the data were processed

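RNA from 6 libraries was compared. Per the file headers, the deposited table holds raw gene counts and RPKM for each library, with mm10 coordinates. TopHat2 2.0.6, HTSeq, Bowtie and mm10 are listed, without roles, per the submitters' processing notes. Neither the counting mode nor the strand setting or annotation is stated, and the labels disagree on the kit (mRNA or ribosomal RNA-depleted total RNA). Every count was an even number (100%), so independent fragments may be fewer than counts. The authors' RPKM uses the length deposited as coding length and a library total of which gene rows held 57.6% to 67.8%. For Bnip3 that length, 1756 bases, equals the length of its annotated mRNA, so it is not the coding sequence alone. RPKM served only to compare levels between genes. No row lacked a name (0%).

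The deposited counts went into edgeR 4.0.16 under R 4.3.3: filterByExpr (minimum count 10, minimum total 15), TMM, and a two-sided quasi-likelihood test with no covariate. Adjusted p-values of edgeR are Benjamini-Hochberg over all genes tested in the same fit, with a threshold of 0.05. The main fit tested 14979 genes, that without the filter 18732 and that without 20% oxygen replicate 1 15273. DESeq2 was given the same filtered rows as the main fit. Its adjusted p-values are those it returned with its own further filtering set to the 0.05 threshold. SE is the fold change on the log2 scale over the root of the F statistic. Alternatives were DESeq2 1.42.0, limma-voom (limma 3.58.1), RLE and upper quartile scaling, no filter, the replicate block and each library left out. The main edgeR fit had a common coefficient of variation of 0.359 between replicates, and the part of counting error was not measured for each gene.

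Libraries of the same number deviated together from their group means across genes (correlations 0.285, 0.465 and 0.233), so the numbers were taken to pair the samples, on this evidence from the data alone. The main edgeR fit and the permutation tests of the ratios left this pairing out. Only the replicate block and a sign-flip test of the ratios within pairs used it.

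Members and lists were chosen with earlier results of these data known, and 1 further gene is not reported here. Named genes were the 6 members described, the 2 with the smallest p in each list, the paralogues in the 3 ratios and the 2 nearest profiles of each member, measured on log2 CPM with a prior count of 2. Another 4 genes of the receptor list were named outside this rule, after their values were seen. Of 138 list genes 135 matched a row. Similar transcripts were sought in GENCODE M21 with blastn 2.17.0. Promoters are RefSeq's, found for 5 members and used for 3.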

Additional observations from a re-analysis of the deposited data

How the results depend on the processing

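Bnip3, Bnip3l, Higd1a and Fam162a kept the sign of their log2 fold change under all 12 alternatives each. The Bnip3 to Bnip3l and Higd1a to Higd2a ratios kept theirs under all 8, but these alternatives could hardly turn it. Their groups did not overlap, so leaving a library out could not change the sign. The sign-flip test within pairs uses the same mean difference. For Bnip3, Higd1a and Fam162a, whose groups also did not overlap, leaving a library out was a similarly weak check. Bnip3 passed with DESeq2 (log2 fold change 1.89) and with no filter on low counts (1.92), so 1 member was called higher in each; the cause was not tested. Genes called higher over all genes numbered 57 with DESeq2, 25 with no filter and 11 with the replicate block, against 0, and genes called lower 7 with DESeq2, 2 with no filter, and 0 to 1 with a library left out, the 1 without 4% oxygen replicate 3. The replicate block changed no member's call; Bnip3 came closest, with an edgeR adjusted p of 0.0746 and a log2 fold change of 2.12. Signs turned for Pink1 without 20% oxygen replicate 2 (-0.14) or 3 (-0.099), for Fundc1 without 20% oxygen replicate 3 (0.020), and for the Fundc1 to Fundc2 ratio without 20% oxygen replicate 1 (-0.21) or 4% oxygen replicate 2 (-0.087), each with fewer samples. With a library left out the ratio differences ran from 1.12 to 1.75 for Bnip3 to Bnip3l, -0.21 to 0.17 for Fundc1 to Fundc2 and 0.997 to 1.49 for Higd1a to Higd2a. Left-out libraries gave -0.36 to 0.020 for Fundc1 and -0.14 to 0.77 for Pink1. The median over all genes moved by less than 0.1 under every scaling.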
